A study of Mus musculus with 14 samples.

Results

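Deletion of *Cfb* was examined in the kidney of mice without diabetes, by comparing the 3 *Cfb-/-* control mice with the 3 WT control mice among the 14 sequenced mice. All 6 were male C57BL/6J mice on chow with 10% of calories from fat, and they were given 50 mM citrate buffer in place of streptozotocin (STZ). A time of 34 weeks is labelled, with no starting point. Going by the starting age and the intervals of diet, injection, and sacrifice in the study's methods, it is near the age at sacrifice. The mice were age-matched. The other 8 mice were *Cfb-/-* diabetic mice (n = 4) and WT diabetic mice (n = 4), on a high-fat diet (60% of calories from fat) with STZ at 60 mg/kg on 5 days. The labels write knockdown for the genotype and repeat the diabetic treatment for the control mice, whereas the titles and the study's methods name a knockout and a buffer injection, so the titles and the diet label were used. Per the study's methods the deletion was present in every cell of the animal, not in the kidney alone, and *Cfb-/-* and WT mice were littermates. Of the 21878 genes in the files, 10866 had an FPKM (fragments per kilobase of transcript, scaled to the size of the library) of at least 1 in 3 or more of the 6 mice and were tested. A gene was counted as higher or lower when all 3 *Cfb-/-* control mice lay above or below all 3 WT control mice, and such genes are said to separate.

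Factor B is a serine protease precursor of the alternative complement pathway. It binds to cleaved C3 on a surface, is cut by factor D, and then forms the enzyme that cleaves more C3, so that the pathway amplifies itself. The liver supplies most of the circulating protein, and tubular epithelium of the kidney also makes it. In healthy kidney the pathway is held in check by soluble and membrane regulators.

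Some libraries stood apart from the others of their group. The second WT control mouse had relatively high values for short transcripts and low values for long ones. The third WT control mouse was low in markers of the outer and inner medulla, and the third *Cfb-/-* control mouse was high in them. The first *Cfb-/-* control mouse alone held markers of fat. The first *Cfb-/-* and the first WT control mouse were the most alike of all pairs across genotype or within it (r = 0.990 over the tested genes, against 0.952 for the least alike pair). The sum of FPKM per mouse was 372884 to 488196. Depth relative to the first *Cfb-/-* control mouse, estimated from the spacing of the lowest FPKM values, was 0.995 to 1.14, and it was least certain in the second WT control mouse. Absolute depth is unknown, and the files hold no counts from which an interval could be computed. In bulk kidney, fewer cells of a type and less RNA per cell cannot be told apart.

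The deleted gene was examined first. *Cfb* was measured at 2.20, 2.22, and 2.05 FPKM in the *Cfb-/-* control mice, and at 131, 62.2, and 126 FPKM in the WT control mice. All *Cfb-/-* mice were far below all WT mice, and the second WT mouse had the lowest value among the WT control mice. The log2 difference on the scale of log2(FPKM + 0.1) was -5.48 (SE 0.23), and limma gave an adjusted p of 7.62e-09 (Benjamini-Hochberg). An exact two-sided permutation test gave p = 0.1, the smallest that 3 mice against 3 allow. *Cfb* lies at chr17:34856374-34862514 (GRCm38.p6), and *C2* follows at chr17:34862602-34882100 on the same strand. GENCODE annotates another gene over both of them, so reads from *Cfb* and *C2* may have been shared in counting. That gene has no value of its own in the deposited data.

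Across all tested genes, 635 were higher (5.84%) and 899 were lower (8.27%) in *Cfb-/-* control mice, and most of these differences were small. In either direction, 1534 genes separated (14.1%). With no genotype difference, 3 mice against 3 separate in either direction with a probability of 0.1 for a gene. Genes are not independent of each other, so the share was not tested against this value. The median log2 difference was 0.40 over the 635 higher genes and -0.33 over the 899 lower genes, and only 17 and 10 of them, respectively, differed by more than 2-fold. By limma, *Cfb* was the only gene with an adjusted p under 0.05 (0.0092% of genes tested), while 2249 genes had an unadjusted p under 0.05 (20.7%). With a fold change over 2 or under 0.5 as well, 73 genes were left (0.672%), 61 higher and 12 lower. The count at the adjusted threshold depended on single mice. It was 2201 without the first WT control mouse, 15 without the first *Cfb-/-* control mouse, and 4 without the second. The count at an unadjusted p under 0.05 was 4146 without the first WT control mouse, 769 without the second, and 819 without the third *Cfb-/-* control mouse, and that of genes also past the fold change was 41 to 199. The counts of separated genes were 755 to 2668 higher and 1080 to 2580 lower on leaving out each mouse in turn, where 5 mice separate more easily than 6. The highest were those without the second *Cfb-/-* control mouse (2668 higher and 1799 lower) and without the first WT control mouse (2635 higher and 2580 lower), and without the first *Cfb-/-* control mouse they were 1021 and 1419. Without the third WT control mouse, 1088 were higher and 1080 lower. Differences other than that of *Cfb* are therefore given below as values in 6 mice, and none of them passed the adjusted threshold with all mice in the fit.

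Among the genes that separated, the largest difference upward was in *Cyp4a14*, a fatty acid hydroxylase of the proximal straight tubule and a classical target of PPARα. It was measured at 13.4, 96.3, and 47.0 FPKM in *Cfb-/-* control mice and at 10.5, 4.97, and 1.76 FPKM in WT control mice. The second and the third *Cfb-/-* mouse were high, whereas the first was close to the first WT mouse. The log2 difference was 3.08 (SE 0.65), and in diabetic mice it had the opposite sign at -0.84 (SE 0.56), with overlapping groups. *Cyp4a10*, a related hydroxylase in the fatty acid oxidation list, was at 141, 260, and 213 FPKM against 154, 141, and 69.9 FPKM, and its groups overlapped.

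*Lcn2* encodes a secreted siderophore-binding protein used as a marker of tubular injury. It was also among the 12 separated genes with the largest difference upward. *Lcn2* was at 2.35, 1.51, and 2.98 FPKM in *Cfb-/-* control mice and at 0.636, 1.17, and 0.838 FPKM in WT control mice (log2 difference 1.26, SE 0.46). Both groups of *Lcn2* values were low. Others were *Mettl7a3*, *Srp54b*, *Megf9*, *Slc22a26*, *Ago2*, *Hoxa6*, *Sesn3*, *Sox4*, and *Slco4a1*, with log2 differences of 1.21 to 1.999. *Mettl7a3*, *Srp54b*, and *Megf9* reached 1 FPKM in the *Cfb-/-* control mice and in no WT control mouse, so they were tested only through the group in which they were high. *Slc22a26* and *Slco4a1* encode organic anion transporters, *Ago2* the slicer of RNA interference, *Sesn3* a stress-induced inhibitor of mTORC1, and *Hoxa6* and *Sox4* transcription factors. *Megf9*, *Ago2*, *Hoxa6*, *Sesn3*, and *Sox4* were each lowest in the second WT control mouse, where *Ago2* was at 0.443 FPKM against 2.95 and 1.28 FPKM in the other WT control mice. *Slc22a26* and *Mettl7a3* were lowest in the third WT control mouse, with *Slc22a26* at 0.621 FPKM there against 3.29 FPKM or more elsewhere. *Srp54b*, a copy of the signal recognition particle gene, was at 1.76, 2.16, and 1.82 FPKM against 0.268, 0.669, and 0.417 FPKM. Its paralog *Srp54c* did not separate (log2 difference 0.086), and reads can be split between such copies, so the value of *Srp54b* is uncertain. *Hoxa6* overlaps *Hoxa3* on the same strand, which bears on its value in the same way.

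**Figure D1:**
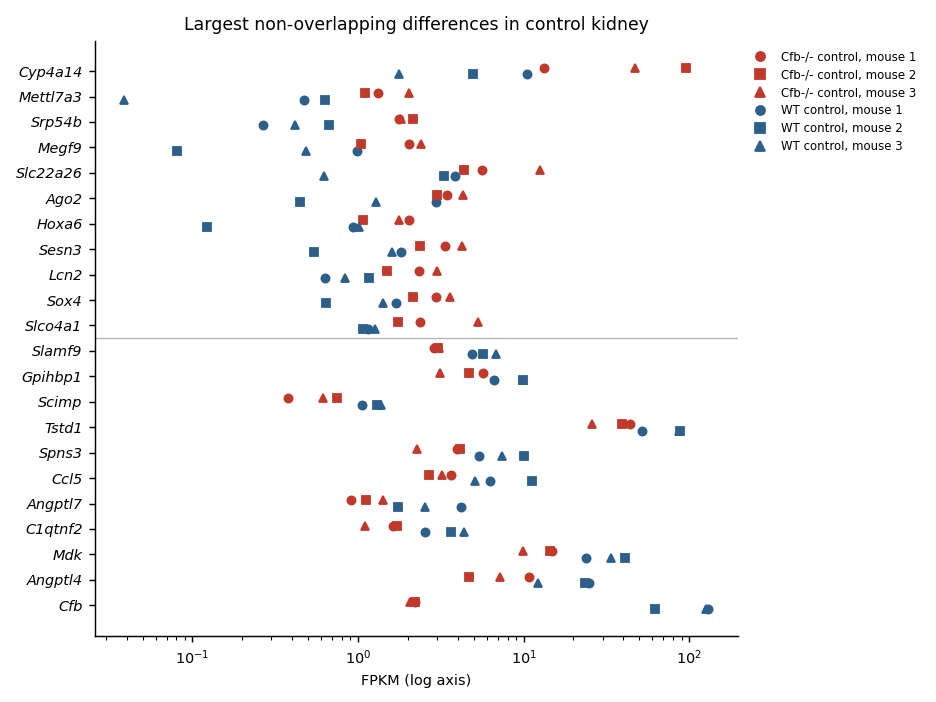
FPKM on a log axis in each of the 6 control mice, for Cfb and the other genes with the largest log2 differences among genes whose groups did not overlap; red symbols are *Cfb-/-* and blue symbols WT control mice, the grey line divides higher from lower genes, and Pet117 is left out because it is listed near 0. *Cfb* stands apart, with about 2 FPKM in *Cfb-/-* mice and 62.2 FPKM or more in WT mice, and for most other genes the nearest mice of both groups lie close to each other.

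*Cfb* aside, *Angptl4* had the largest difference of the genes that were lower in *Cfb-/-* mice without overlap in both control and diabetic mice. *Angptl4* encodes a secreted inhibitor of lipoprotein lipase that responds to fasting, fatty acids, and glucocorticoids. It was at 10.9, 4.70, and 7.19 FPKM in *Cfb-/-* control mice and at 24.97, 23.7, and 12.2 FPKM in WT control mice, a log2 difference of -1.42 (SE 0.29). The third WT control mouse was close to the first *Cfb-/-* control mouse. *Gpihbp1*, which carries lipoprotein lipase to the luminal side of capillary endothelium, was at 5.71, 4.68, and 3.11 FPKM against 6.62, 9.93, and 9.92 FPKM (log2 difference -0.97, SE 0.23). *Mdk*, which encodes the heparin-binding growth factor midkine, was at 14.8, 14.4, and 9.96 FPKM against 23.9, 40.9, and 33.7 FPKM (log2 difference -1.31, SE 0.31). In diabetic mice *Mdk* did not separate, and its log2 difference was 0.35.

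The chemokine *Ccl5* was at 3.67, 2.68, and 3.21 FPKM in *Cfb-/-* control mice and at 6.27, 11.2, and 5.12 FPKM in WT control mice (log2 difference -1.15, SE 0.39). *Scimp*, an adaptor of antigen-presenting cells, and *Slamf9*, a receptor of the SLAM family, had log2 differences of -1.01 and -0.93, and *Scimp* reached 1 FPKM in WT control mice alone. *C1qtnf2*, *Angptl7*, *Spns3*, and *Tstd1* completed the list, with -1.05 to -1.18. *Tstd1* overlaps *Usf1* on the same strand. *Angptl7*, like *Ago2*, *Acaa1b*, *Acadvl*, *C2*, *Slc5a2*, *Clic3*, and *Alas2*, overlaps a protein-coding gene on the opposite strand. The sources used here do not say whether counting used strand, so values of these genes are uncertain to that extent.

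*Pet117*, an assembly factor of cytochrome c oxidase, was listed below 0.001 FPKM in all 3 *Cfb-/-* control mice and at 1.92, 2.56, and 3.22 FPKM in WT control mice. In diabetic mice it was listed near 0 in 1 *Cfb-/-* mouse and at 2.22 to 7.15 FPKM in the other 3, against 1.66 to 5.41 FPKM in WT mice, so that groups overlapped. *Pet117* lies inside *Kat14* on the same strand, so these values can reflect how reads were assigned, and no fold change is drawn from them.

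Transcript length moved with the genotype comparison. Genes were split into 5 equal bins (quintiles) by the length of their longest annotated protein-coding transcript, which was found for 10542 genes (97%). The median log2 difference was -0.26 in the shortest quintile, -0.068, 0.043, and 0.16 in the next, and 0.32 in the longest. Of the shortest quintile, 1.33% were higher and 19.1% lower in *Cfb-/-* control mice, whereas of the longest quintile 9.35% were higher and 0.712% lower. The gap between the longest and the shortest quintile, as the median deviation from a gene's median over the 6 control mice, was 0.24, -0.10, and 0.38 in *Cfb-/-* control mice and 0.12, -0.94, and -0.29 in WT control mice. The second WT control mouse was thus the most extreme, and the groups overlapped. Without it, the medians of the shortest and the longest quintile were -0.15 and 0.13. After the median deviation of each mouse had been removed within 20 bins of length (length centring), 695 genes were higher (6.4%) and 845 lower (7.78%), which included 351 (55.3%) of the 635 and 475 (52.8%) of the 899 genes. Among genes named below, *Slc7a9*, *Fbp1*, *Slc17a3*, *Slc12a3*, *Clic3*, *Alas2*, *Hba-a1*, *Fcer1g*, *C1qb*, *Nelfe*, *Fkbpl*, *Ppt2*, *Acaa1b*, *Acadvl*, *Gsta2*, *Sptssa*, *Mcm2*, *Tyms*, *Tst*, *Myh11*, *Notch3*, *Rbks*, *Fahd2a*, *Gkap1*, and *Psmd12* no longer separated after length centring. The part of RNA quality or library preparation in this gradient was not tested.

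**Figure D2:**
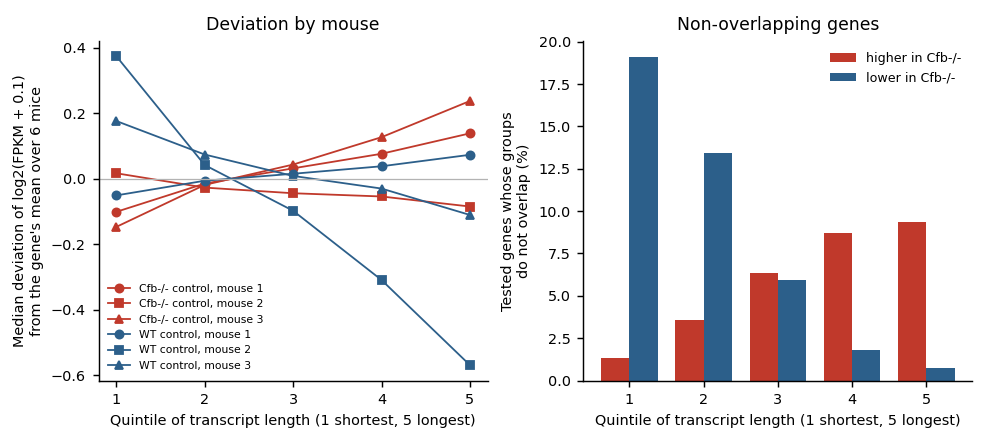
Left, median deviation of log2(FPKM + 0.1) from each gene's median over the 6 control mice (the axis label reads mean), by quintile of transcript length, with 1 line per mouse (red *Cfb-/-*, blue WT). Right, percentage of tested genes in each quintile that were higher (red) or lower (blue) in all *Cfb-/-* control mice than in all WT control mice. The second WT control mouse falls from 0.37 to -0.57 across the quintiles, and lower genes make up 19.1% of the shortest and 0.712% of the longest quintile.

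Gene groups made of short transcripts were among those with negative differences. All 77 genes of cytosolic ribosomal proteins had negative log2 differences, with a median of -0.45, but only 11 were lower without overlap and 0 were higher. *Rps23* and *Rpl10* were among these, and *Rps23* was at 505, 601, and 494 FPKM in *Cfb-/-* control mice and at 623, 978, and 815 FPKM in WT control mice. After length centring the median of the group was -0.15, and it was -0.25 without the second WT control mouse. Nuclear genes of oxidative phosphorylation had a median of -0.29 over 76 genes, with 5 lower and 0 higher. After length centring their median was -0.0059, with 0 lower and 7 higher, so the direction of the separated genes was not stable. The median transcript length was 937 bases for the ribosomal and 875 bases for the oxidative phosphorylation genes, both within the shortest quintile. Of that quintile 19.1% were lower before length centring, against 8.27% of all tested genes.

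The compartments of the kidney were described with marker lists for 20 cell types or zones. Of the 142 tested compartment markers, 8 were higher (5.63%) and 15 lower (10.6%) in *Cfb-/-* control mice, close to the 5.84% and 8.27% of all tested genes. The separated genes thus did not gather in compartment markers as a whole. They were spread over several lists, each with few members. The same shares of all tested genes, 5.84% higher and 8.27% lower, are the background for each list count below.

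The proximal tubule reabsorbs most of the filtered glucose, phosphate, amino acids, and protein, and its early part (S1) has its own transporters. Of 8 tested S1 markers, 3 were lower and 0 higher, and the median log2 difference was -0.35. Over all tested genes 8.27% were lower. The 3 lower markers were *Slc5a2*, the glucose transporter SGLT2, *Slc34a3*, a sodium-phosphate cotransporter, and *Slc7a9*, the light chain of the cystine transporter. *Slc5a2* was at 161, 180, and 130 FPKM in *Cfb-/-* control mice and at 223, 244, and 313 FPKM in WT control mice (log2 difference -0.72, SE 0.55). That SE includes the spread of the diabetic mice, and *Slc5a2* ranged from 13.1 to 82.4 FPKM in *Cfb-/-* diabetic mice. *Slc7a9* was at 29.97, 22.8, and 25.6 FPKM against 34.6, 32.3, and 45.7 FPKM (log2 difference -0.51, SE 0.17). The third WT control mouse was the highest in 5 of the 8 genes. After length centring the median was -0.37 and *Slc7a9* no longer separated. Without length centring, the median was -0.25 without the third WT control mouse and -0.57 without the second.

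Of the 17 tested markers of the whole proximal tubule, 4 were lower and 1 was higher. *Miox*, which breaks down myo-inositol, was at 1551, 2043, and 1401 FPKM in *Cfb-/-* control mice and at 2110, 3188, and 3241 FPKM in WT control mice (log2 difference -0.77, SE 0.25). The gluconeogenic enzyme *Fbp1* and the organic anion transporter *Slc22a8* were also lower, with log2 differences of -0.38 and -0.53. *Slc17a3*, a urate and phosphate transporter, was higher by 0.15 on the log2 scale. The median of the 17 genes was -0.065 and became 0.16 under quantile normalization, so no direction is given for the list.

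Markers of the proximal straight tubule (S3), which lies mainly in the outer medulla, had a median log2 difference of 0.55 over 11 genes, but only *Cyp4a14* separated. The positive median rested on the third WT control mouse, without which it was 0.069. In that mouse *Cyp7b1* was at 2.41 FPKM, against 44.3 to 149 FPKM in the other 5 mice, and *Serpina1f* at 0.768 against 23.3 to 60.2 FPKM. *Slc22a13* and *Slc22a19* were low in the same mouse, at 2.22 and 2.51 FPKM. The third WT control mouse was the lowest and the third *Cfb-/-* control mouse the highest in 8 of the 11 genes each.

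The loop of Henle and the inner medulla showed the same pair of mice at the ends. All 5 tested markers of thin limb and inner medulla had positive log2 differences, with a median of 1.10, and 0 separated. *Slc14a2*, which encodes the urea transporter of the inner medulla, was at 5.95, 1.39, and 15.5 FPKM in *Cfb-/-* control mice and at 0.12, 3.93, and 0 FPKM in WT control mice. Without the third WT control mouse the median was 0.66. In the thick ascending limb, 8 of 10 markers were positive with a median of 0.56, and 0 separated. *Umod*, the most abundant of these, was at 816, 483, and 1499.8 FPKM in *Cfb-/-* control mice and at 744, 655, and 383 FPKM in WT control mice, and without the third *Cfb-/-* control mouse the median of the list fell to 0.17.

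Urothelium lines the renal pelvis, and none of its 10 markers passed the filter. Their summed FPKM was 24.7, 1.51, and 23.8 in *Cfb-/-* control mice and 0.712, 1.54, and 0.742 in WT control mice. The uroplakins *Upk1a* and *Upk2* were present in the first and the third *Cfb-/-* control mouse at 2.9996 and 3.08 FPKM (*Upk1a*) and at 2.22 and 1.66 FPKM (*Upk2*), and they were under 0.4 FPKM in the other 4. *Krt19*, from the list of injured tubule, had the same pattern at 2.35, 0.491, and 3.35 FPKM against 0.200 to 0.264 FPKM. Markers of medulla and pelvis thus differed between mice of the same group, and the part of the tissue sampled in the genotype differences was not tested.

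**Figure D3:**
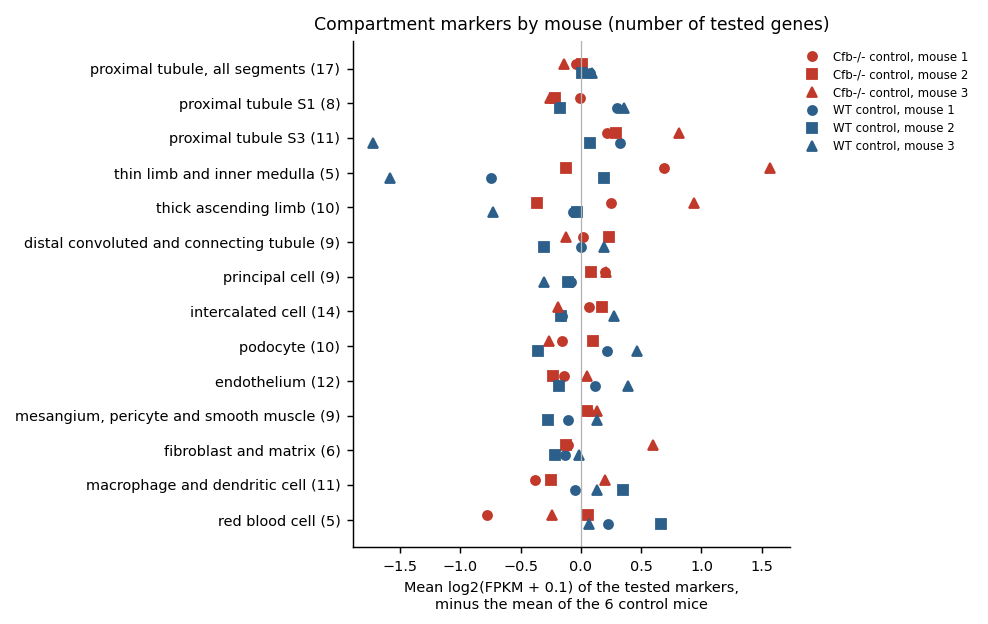
Mean log2(FPKM + 0.1) of the tested markers of each compartment in each control mouse, minus the mean of the 6 mice, for the lists with 5 or more tested genes (their number in brackets; red *Cfb-/-*, blue WT). The third WT and the third *Cfb-/-* control mouse lie at opposite ends for proximal tubule S3, thin limb and inner medulla, and thick ascending limb, and the groups separate in the principal cell list and, in the other direction and narrowly, in the red blood cell list.

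In the distal nephron, *Slc12a3*, the thiazide-sensitive cotransporter of the distal convoluted tubule, was higher in *Cfb-/-* control mice, at 176, 167, and 162 FPKM against 150, 113, and 157 FPKM (log2 difference 0.28, SE 0.34). It was the only one of 9 genes of its list to separate, where 5.84% of all tested genes were higher. After length centring *Slc12a3* no longer separated (log2 difference 0.080). Of the 9 genes, 6 had a positive and 3 a negative log2 difference, and the median was 0.21. *S100g*, among the negative ones, was at 579, 814, and 515 FPKM against 786, 1504, and 1236 FPKM, with overlapping groups. *Fxyd4*, a regulator of the sodium pump in the collecting duct, was the only one of 9 principal cell markers to separate. It was higher in *Cfb-/-* control mice, at 3.31, 2.59, and 2.89 FPKM against 1.75, 2.33, and 2.46 FPKM, where 5.84% of all tested genes were higher. The mean log2 level of the principal cell list was 3.94 to 4.06 in *Cfb-/-* and 3.55 to 3.78 in WT control mice. In the third WT control mouse the low level of this list rested on *Aqp4*, a water channel of the inner medullary collecting duct. *Aqp4* was at 0.192 FPKM in that mouse, against 4.12 to 10.3 FPKM in the others. The third WT control mouse was the lowest in 1 of the 9 principal cell markers, *Aqp4*, and the highest in 2. No direction is therefore given for the principal cell list. Of 14 intercalated cell markers, 2 were higher and 0 lower, namely the chloride-bicarbonate exchanger *Slc4a1*, at 11.2, 9.33, and 13.3 FPKM against 8.34, 6.49, and 7.86 FPKM (log2 difference 0.56, SE 0.16), and the transcription factor *Dmrt2* (0.41, SE 0.25). *Slc4a1* is also expressed in red blood cells. Of the 14 intercalated cell markers, 7 had a positive and 7 a negative log2 difference, and the median was -0.027. The third WT control mouse was the highest in 8 of them and the third *Cfb-/-* control mouse the lowest in 9. Over all tested genes 5.84% were higher, so no direction is given for the list.

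In the glomerulus and vessels, against 8.27% lower over all tested genes, 2 of 10 podocyte markers were lower and 0 higher. They were *Cdkn1c*, a cell cycle inhibitor, at 7.02, 9.71, and 7.72 FPKM against 10.1, 13.5, and 14.8 FPKM, and *Clic3*, at 5.34, 5.24, and 3.44 FPKM against 7.25, 6.62, and 8.35 FPKM. The third WT control mouse was the highest in 8 of the 10 podocyte and 10 of the 12 endothelial markers. *Emcn*, an endothelial sialomucin, was the only endothelial marker to separate, at 30.2, 27.0, and 28.7 FPKM against 33.8, 38.6, and 43.2 FPKM (log2 difference -0.42, SE 0.11). Without the third WT control mouse the medians were 0.017 for podocytes and -0.074 for endothelium, against -0.16 and -0.17 with all mice. Without the second WT control mouse they were -0.41 and -0.35. After length centring, with all mice, they were -0.35 and -0.31. The smooth muscle genes *Myh11* and *Notch3* were higher by 0.30 and 0.41 on the log2 scale, and neither separated after length centring. None of 6 fibroblast and matrix genes separated.

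Of 11 macrophage and dendritic cell markers, 3 were lower and 0 higher, 9 had a negative log2 difference, and the median was -0.46. Over all tested genes 8.27% were lower. The 3 lower markers were *Aif1*, *C1qb*, and *Fcer1g*. *Fcer1g*, a signalling subunit of Fc receptors, was at 7.78, 9.91, and 10.4 FPKM in *Cfb-/-* control mice and at 11.0, 16.3, and 15.4 FPKM in WT control mice (log2 difference -0.59, SE 0.24). *Aif1* was at 0.814, 1.37, and 1.10 FPKM against 1.39, 2.14, and 2.10 FPKM. The median transcript length of the list was 1203 bases, shorter than the 3063 bases of all tested genes, and after length centring its median was -0.19 and only 1 gene separated. *Csf1r*, the receptor that defines these cells, was at 11.8, 10.1, and 17.3 FPKM against 10.3, 11.8, and 5.72 FPKM, with overlapping groups. Of 5 red blood cell genes, *Alas2* and *Hba-a1* were lower, and all 5 were lowest in the first *Cfb-/-* control mouse and highest in the second WT control mouse. Too few neutrophil (2), T and NK cell (1), B and plasma cell (1), and adipocyte (2) markers were tested to describe those lists, and no adrenal gland marker passed the filter. Adipocyte markers below the filter set the first *Cfb-/-* control mouse apart. *Cfd*, which encodes factor D, *Ucp1*, the uncoupling protein of brown fat, *Cidea*, and *Adipoq* were at 6.01, 3.58, 3.11, and 1.82 FPKM in that mouse and at or below 0.175 FPKM in each of the other 5. Its summed adipocyte level was 77.3 FPKM, against 39.99 to 60.2 FPKM in the others.

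Of 12 listed genes of the alternative and terminal pathway 7 were tested, and of these *Cfb* alone separated. Among the untested genes, *C9* was lower in *Cfb-/-* control mice at very low values, with 0.143 to 0.175 FPKM against 0.310 to 0.377 FPKM, and *Cfd* was detected above 1 FPKM in the first *Cfb-/-* control mouse only. *C3* was at 2.15, 1.91, and 3.10 FPKM in *Cfb-/-* control mice and at 2.03, 2.19, and 1.64 FPKM in WT control mice. All 8 tested genes of the classical and lectin pathways had negative log2 differences, with a median of -0.44, and *C1qb*, *C2*, and *C4b* separated. *C1qa*, *C1qb*, and *C1qc* are also on the macrophage and dendritic cell list. The median of the 8 genes was -0.25 after length centring. Between *Cfb-/-* and WT diabetic mice, without length centring, it was 0.041. Over all tested genes 8.27% were lower. *C2*, which takes the place of factor B in those pathways, was at 13.9, 11.5, and 12.3 FPKM in *Cfb-/-* control mice and at 16.9, 19.1, and 18.8 FPKM in WT control mice (log2 difference -0.54, SE 0.15). Between *Cfb-/-* and WT diabetic mice *C2* was not lower, with a log2 difference of 0.25 and overlapping groups. *C4b* was at 2.10, 1.35, and 1.42 FPKM against 2.41, 2.27, and 2.50 FPKM (log2 difference -0.56, SE 0.22). Of the regulators, *Cfi*, which encodes factor I, was lower at 1.84, 1.80, and 0.982 FPKM against 2.998, 2.72, and 2.44 FPKM (log2 difference -0.83, SE 0.25). *Cd55*, the membrane decay-accelerating factor, was higher at 1.63, 1.51, and 1.74 FPKM against 1.20, 1.01, and 0.961 FPKM (log2 difference 0.58, SE 0.21). Neither *Cfi* nor *Cd55* separated in diabetic mice.

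The neighbours of *Cfb* on chromosome 17 were described as a list of their own. Of 26 listed genes 21 were tested, with 0 higher and 5 lower, namely *C2*, *C4b*, *Fkbpl*, *Nelfe*, and *Ppt2*, and the median log2 difference was -0.19. Over all tested genes 8.27% were lower. *Nelfe*, a subunit of the negative elongation factor, ends next to *Cfb* at chr17:34850391-34856372, and its log2 difference was -0.25 (SE 0.13). The heat shock genes *Hspa1a* and *Hspa1b* lie in the same region and went the other way, in 2 mice only. *Hspa1a* was at 3.13, 103, and 37.3 FPKM in *Cfb-/-* control mice and at 3.17, 3.17, and 6.54 FPKM in WT control mice. Of 10 tested heat shock genes 0 separated. The second *Cfb-/-* control mouse was the highest in 8 of them and the first was the lowest in 6, and the median of 0.59 fell to 0.26 without the second. That mouse was also the highest in 7 of 12 immediate early genes, of which *Btg2* was higher and *Klf2* lower.

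Of the 37 lists, cholesterol synthesis had the most members higher in *Cfb-/-* control mice. Cholesterol is made from acetyl-CoA through mevalonate and squalene, and the transcription factor SREBP2 raises these enzymes when sterol in the endoplasmic reticulum is low, while INSIG1 holds it back when sterol is high. Of 20 tested genes 5 were higher and 0 lower, 19 had a positive log2 difference, and the median was 0.48, against 0.041 over all tested genes, of which 5.84% were higher, and 9.35% in the longest quintile of length. None passed the adjusted threshold, and 12 had an unadjusted p under 0.05 from limma, as had 20.7% of all tested genes. *Insig1* was at 23.4, 26.2, and 31.2 FPKM in *Cfb-/-* control mice and at 21.2, 14.2, and 14.3 FPKM in WT control mice (log2 difference 0.71, SE 0.15). *Hsd17b7*, *Msmo1*, and *Dhcr7*, which act in the late steps from lanosterol to cholesterol, had log2 differences of 0.88 (SE 0.26), 0.49 (SE 0.21), and 0.41 (SE 0.17). *Dhcr7* was at 8.57, 10.2, and 10.5 FPKM against 7.15, 7.53, and 7.21 FPKM, a small difference in which WT control mice were close together. The third *Cfb-/-* control mouse was the highest in 12 of the 20 genes, and without it the median was 0.36. The median was 0.34 after length centring, with 8 genes higher. The list held long transcripts, with a median of 3610 bases.

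**Figure D4:**
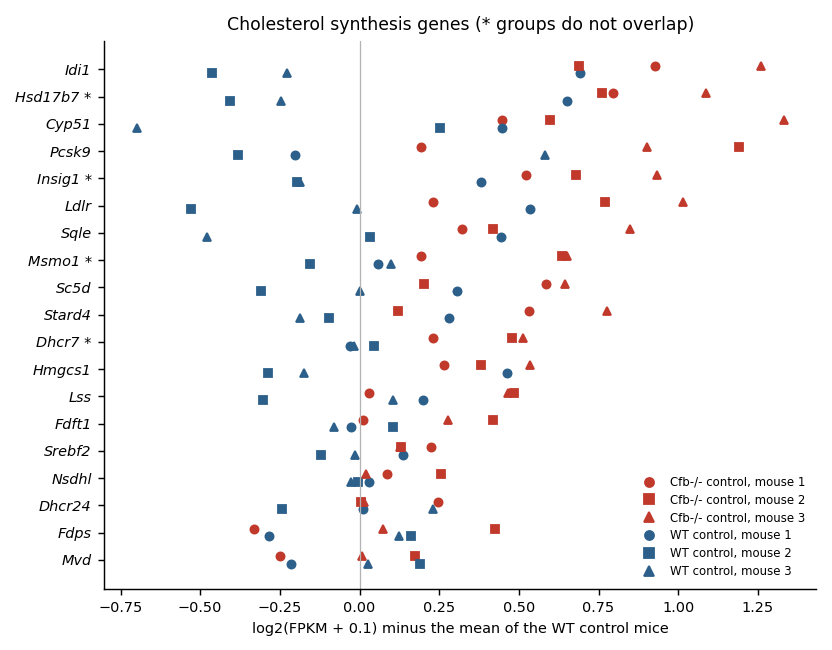
log2(FPKM + 0.1) of 19 of the cholesterol synthesis genes in each control mouse, minus the mean of the WT control mice for that gene (red *Cfb-/-*, blue WT; an asterisk marks genes whose groups did not overlap). The 4 marked genes are *Hsd17b7*, *Insig1*, *Msmo1*, and *Dhcr7*, and in most others the first WT control mouse lies above the lowest *Cfb-/-* mouse.

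Promoters of separated cholesterol genes are shown so that a reader can see the regulatory sequence of genes with a shared regulator, since the files hold no sequence of their own. SREBP2 binds sterol regulatory elements together with NF-Y, which recognises CCAAT. Reference windows of 300 bases from RefSeq (GRCm38.p6) were matched by symbol for 12 of the 20 genes, as 14 windows. For *Insig1* (chr5:28071162-28071461, plus strand), *Hsd17b7* (chr1:169969156-169969455, minus strand), *Msmo1* (chr8:64733529-64733828, minus strand), and the last of 3 windows of *Dhcr7* (chr7:143829964-143830263, plus strand), capitals mark CCAAT on either strand, which reads ATTGG on the other.
Insig1: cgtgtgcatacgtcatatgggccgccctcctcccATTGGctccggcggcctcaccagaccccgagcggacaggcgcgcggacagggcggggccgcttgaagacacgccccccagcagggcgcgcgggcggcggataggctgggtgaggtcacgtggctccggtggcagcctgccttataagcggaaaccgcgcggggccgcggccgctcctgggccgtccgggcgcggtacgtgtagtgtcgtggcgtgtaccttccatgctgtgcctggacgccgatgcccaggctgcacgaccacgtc
Hsd17b7: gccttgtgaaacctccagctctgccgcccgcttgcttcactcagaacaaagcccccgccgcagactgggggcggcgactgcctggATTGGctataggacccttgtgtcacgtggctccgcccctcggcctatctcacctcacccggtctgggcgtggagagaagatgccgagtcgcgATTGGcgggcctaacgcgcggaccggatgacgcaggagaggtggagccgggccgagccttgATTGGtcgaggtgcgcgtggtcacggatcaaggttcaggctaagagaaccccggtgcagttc
Msmo1: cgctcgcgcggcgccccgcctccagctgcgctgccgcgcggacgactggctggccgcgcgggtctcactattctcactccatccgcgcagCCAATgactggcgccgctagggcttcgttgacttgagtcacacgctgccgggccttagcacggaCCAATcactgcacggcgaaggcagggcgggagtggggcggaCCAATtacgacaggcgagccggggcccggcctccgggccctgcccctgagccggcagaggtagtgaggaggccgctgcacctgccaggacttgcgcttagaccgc
Dhcr7: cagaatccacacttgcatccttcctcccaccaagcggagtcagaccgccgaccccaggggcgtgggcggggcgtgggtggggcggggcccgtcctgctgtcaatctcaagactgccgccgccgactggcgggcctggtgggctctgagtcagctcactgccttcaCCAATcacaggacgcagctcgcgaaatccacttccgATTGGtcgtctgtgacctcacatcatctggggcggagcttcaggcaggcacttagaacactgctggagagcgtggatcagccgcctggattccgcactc

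CCAAT was present in 12 of the 14 windows, including all 4 shown, against 37.4% of the 32851 reference windows of the same length. The other windows of *Dhcr7* had none. The letters TCACNCCAC, used here for a sterol regulatory element and searched on both strands, were present in 1 of the 14 windows, that of *Hmgcs1*, and in 1.24% of all windows. These matches describe the letters in the windows and were not tied to any measurement of binding.

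Of 18 tested genes of fatty acid oxidation, 3 were lower and 0 higher. The median log2 difference was 0.056, and -0.033 after length centring. *Acaa2* and *Acaa1b* encode the last enzymes of mitochondrial and peroxisomal beta-oxidation, respectively, and *Acadvl* the first enzyme for very long chains. *Acaa2* was at 86.6, 99.8, and 94.5 FPKM in *Cfb-/-* control mice and at 112, 135, and 151 FPKM in WT control mice (log2 difference -0.50, SE 0.14). *Acaa1b* was at 47.5, 55.0, and 66.1 FPKM against 68.2, 78.8, and 84.5 FPKM (log2 difference -0.46, SE 0.14). For *Acaa1b* the nearest mice of both groups, at 66.1 and 68.2 FPKM, were closer to each other than the mice within a group. After length centring *Acaa2* still separated and *Acaa1b* did not.

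In the remaining pathway lists few genes separated. Of 13 injured tubule genes, *Lcn2*, *Krt18*, and *Spp1* were higher and *Krt8* was lower. *Krt18* and *Krt8* encode keratins that pair in simple epithelia, and they differed in opposite directions, with *Krt18* at 10.3, 8.58, and 8.78 FPKM against 4.70, 7.54, and 8.05 FPKM and *Krt8* at 42.2, 38.04, and 38.3 FPKM against 45.2, 61.2, and 49.8 FPKM. *Asns*, which makes asparagine and is a target of ATF4, was the only one of 15 ER stress genes to separate, at 2.26, 2.04, and 2.57 FPKM against 0.723, 1.23, and 1.10 FPKM (log2 difference 1.12, SE 0.24). The second *Cfb-/-* control mouse was the highest in 11 of those 15 genes. Among 10 NRF2 targets, *Gclc*, the catalytic subunit of glutathione synthesis, was at 90.3, 66.0, and 105 FPKM against 58.4, 52.0, and 37.0 FPKM (log2 difference 0.83, SE 0.22), while *Gsta2*, a glutathione transferase with near-identical paralogs, was lower. *Sptssa*, the small subunit of serine palmitoyltransferase, was lower by 0.14 on the log2 scale and was the only one of 9 ceramide synthesis genes to separate. Of 12 interferon-stimulated genes *Rtp4* was higher, of 5 cell cycle genes *Mcm2* was higher and *Tyms* lower, and of 16 circadian clock genes 0 separated. Over all 37 lists, 22 of 470 tested members were higher (4.68%) and 46 lower (9.79%).

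The diabetic mice carry the same genotypes and share no mouse with this comparison. Of the 635 genes higher in *Cfb-/-* control mice, 497 (78.3%) also had a positive log2 difference between *Cfb-/-* and WT diabetic mice, where 61.5% of all tested genes were positive. Of the 899 lower genes, 577 (64.2%) were negative in diabetic mice, against 38.5% of all. Without overlap in both comparisons, 27 genes were higher and 13 lower. Among diabetic mice alone, 221 genes were higher (2.03%) and 89 lower (0.819%) without overlap. The median difference in diabetic mice was -0.050 in the shortest and 0.10 in the longest quintile of transcript length, in the same order as in control mice, and the part of length in these shares was not tested.

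The 27 higher genes included *Insig1* and *Hoxa6*. *Insig1* was at 20.2, 17.1, 18.8, and 17.04 FPKM in *Cfb-/-* diabetic mice and at 13.6, 13.9, 11.4, and 13.3 FPKM in WT diabetic mice, a log2 difference of 0.48. The difference was smaller than in control mice. *Hsd17b7*, *Msmo1*, and *Dhcr7* overlapped in diabetic mice, with log2 differences of 0.26, 0.40, and 0.28, and the median of the 20 genes was 0.27.

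The 13 lower genes were *Cfb*, *Angptl4*, *Acaa2*, *Acaa1b*, *Tst*, *Mpst*, *Rbks*, *Cox16*, *Fahd2a*, *Gkap1*, *Grina*, *Psmb1*, and *Psmd12*. *Angptl4* was at 21.6, 30.7, 32.0, and 29.9 FPKM in *Cfb-/-* diabetic mice and at 42.0, 44.8, 37.6, and 50.3 FPKM in WT diabetic mice, a log2 difference of -0.62. *Acaa2* was lower by 0.45 and *Acaa1b* by 0.38 on the log2 scale. *Tst* and *Mpst* lie in tandem in the genome and encode sulfurtransferases of cyanide and cysteine metabolism. They were at 60.9, 49.6, and 46.0 FPKM (*Tst*) and at 36.3, 32.8, and 31.7 FPKM (*Mpst*) in *Cfb-/-* control mice, against 62.0, 95.2, and 84.8 FPKM and 38.6, 56.4, and 47.0 FPKM in WT control mice. Between *Cfb-/-* and WT diabetic mice, *Cfb* alone passed the adjusted threshold of limma (adjusted p = 6.87e-10).

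**Figure D5:**
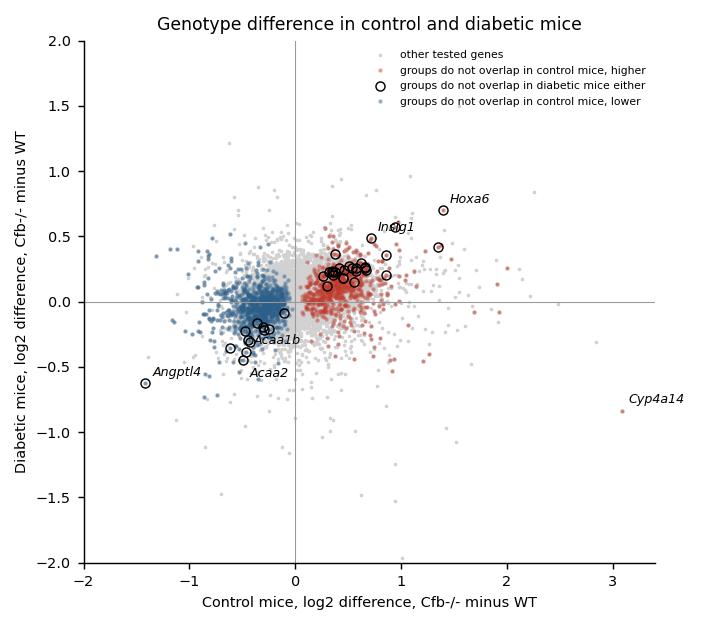
Log2 difference between *Cfb-/-* and WT mice in control (x axis) and diabetic (y axis) mice for each tested gene; red and blue points are genes whose groups did not overlap in control mice, and black circles mark those that did not overlap in the same direction in diabetic mice. *Cfb* and 4 other genes lie outside the axes; *Insig1* and *Hoxa6* are in the upper right quadrant, *Angptl4*, *Acaa1b*, and *Acaa2* in the lower left, and *Cyp4a14* in the lower right.

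The difference between genotypes was tested for a change with diabetes in the same fit. By limma, 0 genes had an adjusted p under 0.05 for this interaction and 567 had an unadjusted p under 0.05 (5.22%). Without the first *Cfb-/-* control mouse 3 genes passed. For *C2* and *Cyp4a14*, whose log2 differences had opposite signs in control and diabetic mice, a difference between the comparisons was therefore not established over all genes.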

How the data were processed

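RNA was extracted from kidney and sequenced as paired-end, stranded, poly(A)-selected libraries in 14 mice, of which the 6 control mice were compared here. Per the labels and the study's methods, the authors trimmed the reads, aligned them, and deposited 1 table of FPKM per gene and mouse. The submitters' processing notes name Trimmomatic, HISAT2, Cufflinks, HTSeq, and DESeq, and the build GRCm38.p6. Whether cortex or whole kidney was sequenced is not given in the sources used here.

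FPKM values were tested as log2(FPKM + 0.1), so a log2 difference understates the change of low genes. A gene was kept if 3 or more of the 6 control mice reached 1 FPKM. One limma model (version 3.58.1, with an intensity trend) was fitted to all 14 mice, so that the 4 groups shared 1 estimate of the spread, with Benjamini-Hochberg adjustment over 10866 genes. The mice of a group are separate animals per the study's methods, and the labels say no more. The fit was tested on simulated data. The FPKM carry no read counts, so depth is known only relative to another mouse.

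The named genes were *Cfb*, the 12 with the largest log2 difference in each direction among those that separated, up to 3 separated members of each list with the largest difference, and complement genes. Symbols that start with Gm and a digit or end in Rik were counted and not named, apart from a count of 5 or fewer. Other list members, paralogs, and genes that separated in both comparisons were named after their values were seen. The members, gene lists, and comparisons were chosen with earlier results of these data known. Transcript lengths came from the GENCODE annotation. Alternatives covered the pseudocount, the filter, scaling, the samples in the fit, each mouse left out, a replicate block, and length centring, which was added after seeing the data. Some genes that these rules would name are not reported here, while counts and medians over lists include them.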

Additional observations from a re-analysis of the deposited data

Results flagged for a closer look

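In groups of 4 diabetic mice, a mouse was far from the other 3 for 2 of 9 genes examined (18 groups; chance gives about 1 in 20). For *Cfb* in *Cfb-/-* diabetic mice, the values were 1.38, 1.43, 1.13, and 1.42 FPKM, and the gap of the lowest to its neighbour made up 0.855 of the range. For *Angptl4* in *Cfb-/-* diabetic mice, the lowest of 21.6, 30.7, 32.0, and 29.9 FPKM stood apart by 0.832 of the range.

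In 4 genes the mice separated in opposite directions in control and diabetic mice. By limma, the interaction had a log2 value, diabetic minus control, of 0.302 for *6330416G13Rik*, 0.925 for *Fam83g*, 0.554 for *Fntb*, and 0.747 for *Tusc1*, with a Benjamini-Hochberg adjusted p of 0.727 for each.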

How the results depend on the processing

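Of the comparisons of 62 named genes under 16 settings each, 960 kept the direction and the side of the adjusted threshold, and 32 kept the direction and came to pass it, of which 27 did so without the first WT control mouse. The number of genes with an adjusted p under 0.05 by limma was 3 with no filter, 2 in the 6 control mice alone, 2 there with length centring, and 1 to 2201 with each mouse left out. The number at an unadjusted p under 0.05 was 997 in the 6 control mice alone, 979 there with length centring, and 769 to 4146 with each mouse left out. With the fold change as well, it was 30 with log2(FPKM + 1), 164 with the filter at 0.1 FPKM, 166 with no filter, 47 with length centring in the 6 control mice alone, and 41 to 199 with each mouse left out. Genes that separated upward numbered 1070 with no filter and 755 to 2668 with each mouse left out, those downward 1080 to 2580, and list members 92 to 247 against 68 with all mice. The interaction gave 0 to 3 genes. The main fit did not pair samples by replicate number. Correlations of deviations between control mice of the same number were 0.094, 0.26, and -0.30. These values cannot show whether the samples were paired, since single mice stood apart. With the replicate block 2 genes passed the adjusted threshold in the 6 control mice alone and 1 in all 14. The cause of these changes was not tested. Without counts, depth sets no limit that could be computed, and low genes are the least certain.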
